A study of Mus musculus with 9 samples.

Results

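Bsnd, F3, Ear5, Gsdmc, Rnase1, Ankrd23 and Exph5 are 7 of the 38203 genes in the deposited expression table of mouse embryonic epidermis. They were selected on the mean FPKM of the genotypes, because the mean of each gene lay well below the wild-type mean in all 3 genotypes that lacked Esrp1, so the distance from WT is what defined them and is given here as a description only. The open question was whether the 7 genes also responded to the dose of Esrp2. RNA from the epidermis of individual E18.5 embryos on a mixed C57BL6/129Sv background, back-crossed into C57BL6, was sequenced in 9 libraries. WT embryos had both genes intact by their sample labels and gave 2 libraries. KO embryos lacked Esrp1 and kept both Esrp2 alleles (3 libraries), KH embryos lacked Esrp1 and kept 1 Esrp2 allele (2 libraries), and DKO embryos lacked both genes (2 libraries). Both genes were removed through the germline, Esrp1 by deletion of a block of exons and Esrp2 by replacement of its locus, and per the study's methods KO, KH and DKO embryos came from separate crosses, so genotype and parentage cannot be told apart. Each library came from 1 embryo, and the spread within a genotype is that between embryos. The values are FPKM, which counts sequenced fragments relative to the exon length of the gene and to the mapped total, so that levels of different genes can be compared.

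The epithelial splicing regulatory proteins Esrp1 and Esrp2 are RNA-binding proteins that direct epithelial patterns of alternative splicing and can stand in for each other at many exons. The epidermis is a layered epithelium in which keratinocytes divide in the basal layer and differentiate through the spinous and granular layers into the cornified layer, the barrier at the body surface. F3 encodes tissue factor, the membrane receptor that starts blood coagulation by binding factor VII. Rnase1 encodes a secreted pancreatic-type ribonuclease, and Ear5 encodes an eosinophil-associated ribonuclease of the same superfamily. Gsdmc encodes a gasdermin, a family whose cleaved members form pores in membranes. Bsnd encodes barttin, an accessory subunit of chloride channels, Exph5 encodes an effector of the vesicle-trafficking GTPase Rab27, and Ankrd23 encodes an ankyrin repeat protein best known from striated muscle.

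All 9 libraries carried the markers of the labelled tissue, with summed FPKM of 5 basal keratinocyte markers between 3639 and 7852. Esrp2 was at 118.1 and 135.8 FPKM in WT and at 0.0843 and 0.0463 FPKM in DKO, and the WT values go with the sample labels, whereas the extraction text names controls without Esrp2. Its level was 88.1, 88.4 and 131.1 FPKM in KO and 38.6 and 89.5 FPKM in KH, so KH replicate 2 lay above KO replicates 1 and 2. Esrp2 dose here means the number of alleles, not the level of its RNA. The FPKM of Esrp1 in embryos without it was 18.2 to 55.1, against 119.0 and 141.9 in WT, so the value over the whole gene was lower but not at 0 in these embryos. The paper traced such RNA in Esrp1 KO samples to transcripts that lack the deleted exons and would give no working protein. It also reported loss of the Esrp1 protein by western blot. Library sums of FPKM ranged from 713318 to 1130710, and read counts behind each value cannot be had from FPKM, so the counting precision is unknown. Xist was at 76.2 to 180.4 FPKM in the 3 KO libraries and 110.9 in WT replicate 2 and at most 0.178 in all KH and DKO libraries and WT replicate 1. KO therefore differed from KH and DKO in Xist status as well as in Esrp2, whereas KH and DKO were alike in it. Because Xist status varied within a genotype only between the 2 WT libraries, Xist status and Esrp2 dose cannot be told apart where KO is compared with KH or DKO.

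Tissue factor was the most abundant transcript of the 7 in WT and showed the largest difference between DKO and KO embryos on the log2(FPKM + 1) scale. F3 (mm10 chr3:121723537-121735052, plus strand, protein coding) was at 309.1 and 284.8 FPKM in WT. The KO libraries held 66.2, 96.1 and 148.3 FPKM, the KH libraries 65.4 and 111.8 FPKM and the DKO libraries 44.3 and 29.6 FPKM. Both DKO libraries lay below all 5 KO and KH libraries, and these in turn lay below both WT libraries. F3 stood at 34.9% ± 14.0 (SD, n = 3) of the WT mean in KO embryos, 29.8% ± 11.1 (SD, n = 2) of it in KH embryos and 12.5% ± 3.49 (SD, n = 2) of it in DKO embryos. KO and KH therefore overlapped, while the DKO mean was 35.7% of the KO mean.

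The 250 bases before the F3 start are shown because F3 had the largest difference between DKO and KO on the log2(FPKM + 1) scale and its window held most of the motif matches found. They are RefSeq sequence of GRCm38.p6, the same assembly as mm10, at chr3:121723287-121723536 on the plus strand, 5′ to 3′, with the letters TGANTCA and GGGTGTGG in capitals.
F3: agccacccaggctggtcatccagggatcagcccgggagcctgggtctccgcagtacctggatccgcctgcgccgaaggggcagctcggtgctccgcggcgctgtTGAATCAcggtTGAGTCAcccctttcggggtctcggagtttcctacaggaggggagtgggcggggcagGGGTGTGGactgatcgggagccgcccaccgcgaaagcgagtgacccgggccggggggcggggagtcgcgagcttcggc
TGANTCA, the pattern bound by AP-1 factors, was found starting 146 and 135 bases before the start site, and GGGTGTGG, a Klf-type pattern that overlaps the reverse complement of CACACCC, at 78 bases before it. Over 32851 RefSeq promoter windows of 250 bases before and 50 after the start, searched on both strands, 7.81% held TGANTCA, 3.56% held GGGTGTGG, 7.95% held CACACCC, 13.6% held TATAAA, 37.4% held CCAAT and 0.146% held AACCGGTT, the Grhl pattern. Windows were matched for 5 of the 7 genes (6 windows, as Ankrd23 has 2 starts). TGANTCA, GGGTGTGG and CACACCC were each found in 1 of the 6, that of F3, where TATAAA was also found on the reverse strand at 43 bases after the start. CCAAT was found in 3 of the 6, those of Exph5, Rnase1 and Ear5, and AACCGGTT in 0 of the 6. These are matches of letters only.

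**Figure D1:**
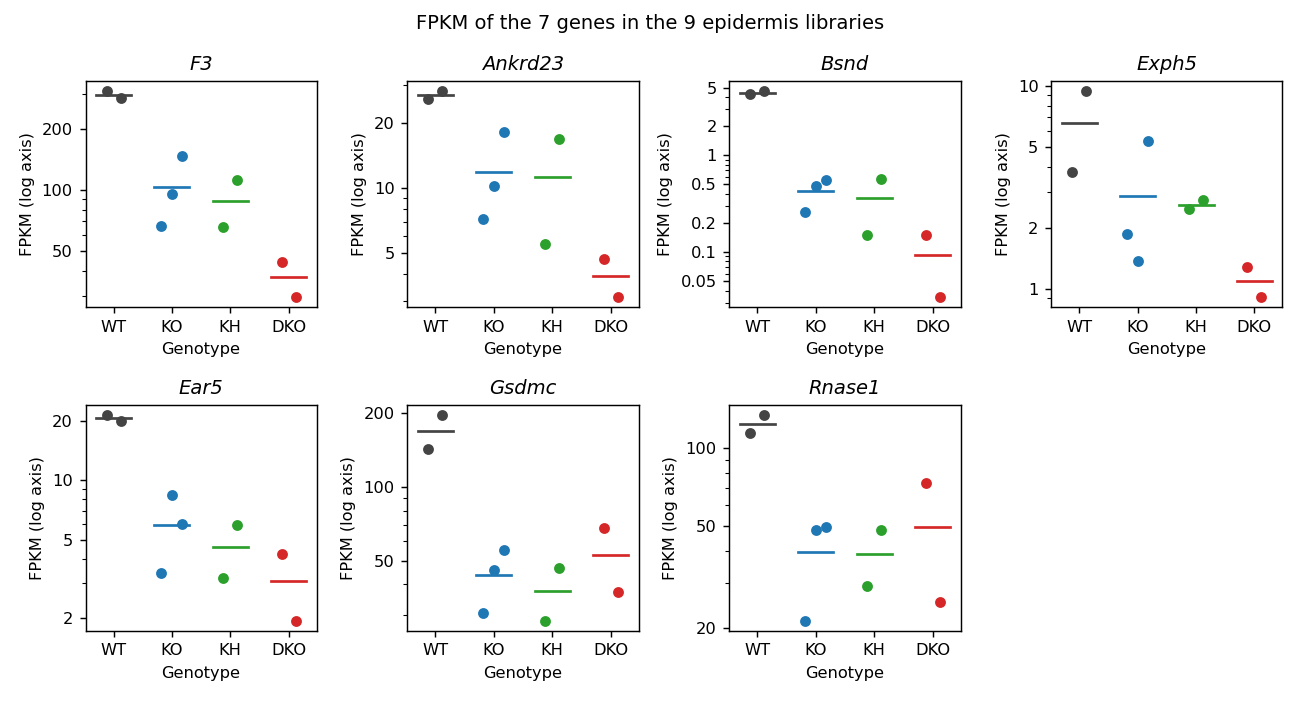
FPKM of each gene (vertical axis, log scale, a separate range for each panel) in every library (points) of WT, KO, KH and DKO epidermis, with lines at the genotype means. In F3, Ankrd23 and Exph5 both DKO points lie below all KO and KH points, whereas in Gsdmc and Rnase1 the higher DKO point (68.0 and 73.4 FPKM) lies above every KO and KH point.

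The ribonuclease genes Rnase1 and Ear5 lie next to each other on chromosome 14, 15492 bases apart and on opposite strands. Rnase1 (mm10 chr14:51145002-51146767, minus strand, protein coding) was at 114.4 and 134.4 FPKM in WT. KO libraries held 21.4, 48.0 and 49.2 FPKM, the KH libraries 29.1 and 48.3 FPKM and the DKO libraries 73.4 and 25.2 FPKM. The DKO libraries thus held both the highest Rnase1 value of the 7 libraries without Esrp1 and the second lowest, and all 7 lay below WT. Rnase1 stood at 31.8% ± 12.6 (SD, n = 3) of the WT mean in KO embryos, 31.1% ± 10.9 (SD, n = 2) of it in KH embryos and 39.7% ± 27.4 (SD, n = 2) of it in DKO embryos.

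Ear5 (mm10 chr14:51162260-51163018, plus strand, protein coding, named Rnase2b in GENCODE M21) was at 21.4 and 19.9 FPKM in WT. KO libraries were at 3.37, 8.43 and 5.99 FPKM, KH libraries at 3.21 and 5.96 FPKM and DKO libraries at 4.24 and 1.94 FPKM. The 3 genotypes without Esrp1 overlapped, with means of 28.7% ± 12.2 (SD, n = 3), 22.2% ± 9.40 (SD, n = 2) and 15.0% ± 7.84 (SD, n = 2) of the WT mean in KO, KH and DKO. Ear5 belongs to a family of near-identical copies among which reads can be shared, which makes its level less certain. How many reads were shared cannot be had from FPKM. Of the other genes of the cluster, Rnase6, the nearest on the far side of Rnase1, had means of 0.220 FPKM in WT and 0.258, 0.496 and 0.728 FPKM in KO, KH and DKO, and Ang2, the nearest on the far side of Ear5, 3.05 FPKM in WT and 2.42, 2.06 and 2.08 FPKM in KO, KH and DKO. Rnase4, a further secreted ribonuclease, had means of 51.5 FPKM in WT and 43.0, 40.3 and 40.2 FPKM in KO, KH and DKO, and Ang, which encodes angiogenin, ranged from 6.34 to 14.6 FPKM over the 9 libraries, with a mean of 10.4 FPKM in WT.

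The adjacent genes Rnase1 and Ear5 differed in the order of their DKO and KO means. Neither difference passed the test described below, and that of Rnase1 turned negative without DKO replicate 1 or KO replicate 1. The bases before the starts of both ribonuclease genes are given beside these means. They are RefSeq sequence of GRCm38.p6 written 5′ to 3′ along each gene, at chr14:51146768-51147017 (minus strand) for Rnase1 and chr14:51162010-51162259 (plus strand) for Ear5, with CCAAT in capitals.
Rnase1: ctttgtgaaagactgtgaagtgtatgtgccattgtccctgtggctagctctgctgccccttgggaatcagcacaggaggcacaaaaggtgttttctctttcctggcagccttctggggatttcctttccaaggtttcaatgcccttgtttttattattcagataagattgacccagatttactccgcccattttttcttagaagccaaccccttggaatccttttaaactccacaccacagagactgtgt
Ear5: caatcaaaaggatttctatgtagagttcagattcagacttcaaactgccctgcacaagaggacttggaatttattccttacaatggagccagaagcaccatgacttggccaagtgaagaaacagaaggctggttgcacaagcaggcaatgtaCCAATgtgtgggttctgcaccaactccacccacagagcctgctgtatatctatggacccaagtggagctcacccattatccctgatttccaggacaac
The Ear5 stretch held CCAAT at 98 bases before the start, and that of Rnase1 held none of the letters searched, its CCAAT lying at 18 bases after the start and outside the bases shown.

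Gsdmc (mm10 chr15:63775971-63808759, minus strand, protein coding) was at 142.6 and 196.7 FPKM in WT. The KO libraries held 30.6, 45.7 and 55.1 FPKM, the KH libraries 28.5 and 46.8 FPKM and the DKO libraries 68.0 and 37.2 FPKM. All 7 libraries without Esrp1 lay well under WT, and the order of DKO and KO means was the opposite of that in F3. The means were 25.8% ± 7.27 (SD, n = 3), 22.2% ± 7.64 (SD, n = 2) and 31.0% ± 12.8 (SD, n = 2) of the WT mean in KO, KH and DKO. Gsdmc2, Gsdmc3 and Gsdmc4, the nearest copies of the gene on the same chromosome, had means of at most 0.189, 0.0703 and 0.0230 FPKM in any genotype, so nearly all of the signal of this cluster was assigned to Gsdmc.

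Bsnd (mm10 chr4:106483456-106492283, minus strand, protein coding) was the least abundant of the 7 in WT, at 4.25 and 4.57 FPKM, and stood furthest below it. The KO libraries held 0.258, 0.479 and 0.548 FPKM, the KH libraries 0.149 and 0.569 FPKM and the DKO libraries 0.151 and 0.0345 FPKM. The lower KH library reached the level of the higher DKO library, and both DKO libraries lay below all KO libraries. Its means were 9.71% ± 3.44 (SD, n = 3) of the WT mean in KO embryos, 8.15% ± 6.74 (SD, n = 2) of it in KH embryos and 2.11% ± 1.88 (SD, n = 2) of it in DKO embryos.

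Ankrd23 (mm10 chr1:36530534-36535729, minus strand, protein coding) was at 25.9 and 28.0 FPKM in WT. The KO libraries held 7.17, 10.2 and 18.2 FPKM, the KH libraries 5.49 and 16.9 FPKM and the DKO libraries 4.70 and 3.14 FPKM. Both DKO libraries lay below every other library, although the lower KH library was close to them. The means were 44.0% ± 21.2 (SD, n = 3), 41.5% ± 29.9 (SD, n = 2) and 14.5% ± 4.08 (SD, n = 2) of the WT mean in KO, KH and DKO. The gene overlaps Gm42417 on the same strand in GENCODE M21, and reads from the shared stretch cannot be told apart. Its muscle relatives Ankrd1 and Ankrd2 were at no more than 0.0280 and 0.378 FPKM in any library, and the sum of 6 skeletal muscle markers was 9.41 to 11.5 FPKM in WT, 7.43 to 15.5 in KO, 4.02 to 7.69 in KH and 5.91 to 10.7 in DKO. Most of that sum was the myosin light chain Mylpf, at 3.82 to 14.9 FPKM, while Myh3 and Myh8, muscle myosin heavy chains, were below 0.1 FPKM in all 9 libraries. The part of the muscle markers in the level of Ankrd23 was not tested.

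Exph5 (mm10 chr9:53301670-53377514, plus strand, protein coding) was the gene with the widest spread in WT relative to its mean, at 3.76 and 9.41 FPKM. The KO libraries held 1.86, 1.38 and 5.34 FPKM, the KH libraries 2.47 and 2.73 FPKM and the DKO libraries 1.28 and 0.912 FPKM. KO replicate 3 lay above WT replicate 1, so Exph5 was the only one of the 7 in which the libraries without Esrp1 overlapped WT, and both DKO libraries lay below all others. The means were 43.4% ± 32.8 (SD, n = 3), 39.4% ± 2.74 (SD, n = 2) and 16.6% ± 3.93 (SD, n = 2) of the WT mean in KO, KH and DKO. The KO mean rested on KO replicate 3, at 81.0% of the WT mean, with the other KO libraries at 28.3% and 20.9%. With WT replicate 1 as the only WT library the KH mean would be 69.0% and the DKO mean 29.1% of WT, and with WT replicate 2 alone 27.6% and 11.6%. Rab27a, the GTPase that Exph5 binds, was at 30.8 and 35.9 FPKM in WT and between 16.5 and 22.8 FPKM in the other 7 libraries, and its differences from WT did not pass the test described next (adjusted p = 0.853 in KO, 0.722 in KH and 0.141 in DKO, limma).

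**Figure D2:**
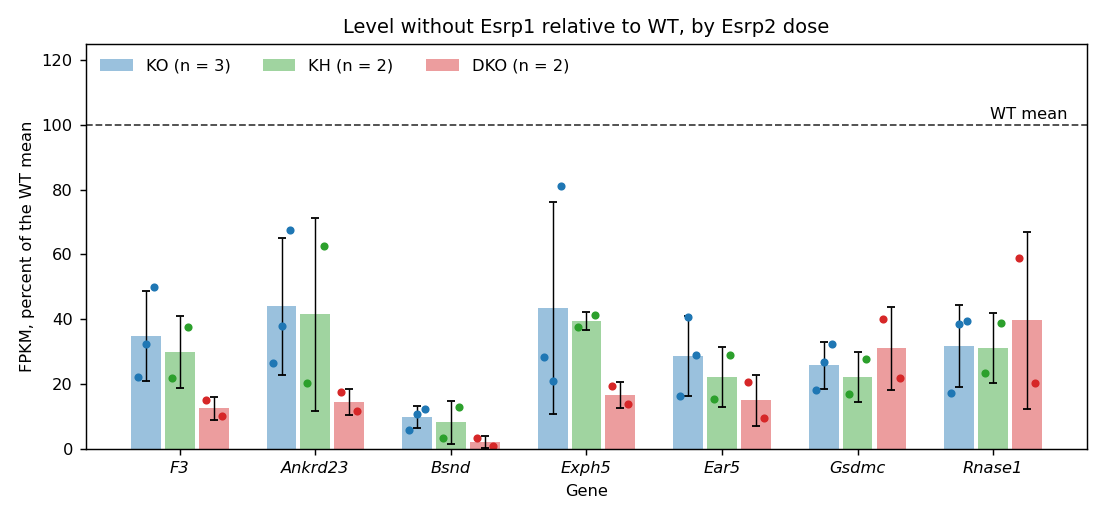
Mean FPKM as a percent of the WT mean (vertical axis, starting at 0) for the 7 genes in KO, KH and DKO epidermis, with SD bars and a point for each library. The bars run from 9.71% (Bsnd) to 44.0% (Ankrd23) in KO and from 2.11% (Bsnd) to 39.7% (Rnase1) in DKO, and the DKO bar is the lowest of the 3 in every gene but Gsdmc and Rnase1.

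The 7 genes had medians of 31.8%, 29.8% and 15.0% of the WT mean in KO, KH and DKO, and the highest value of any was 44.0%. Of 11930 genes with a WT mean of at least 1 FPKM, 64 (0.536%) had all 3 means below 50% of WT, the 7 among them. Ordered by their highest mean from the lowest up, Bsnd was at place 11 of the 64, Ear5 at 21, Gsdmc at 25, F3 at 29, Rnase1 at 34, Exph5 at 44 and Ankrd23 at 48. All 7 libraries without Esrp1 lay below both WT libraries in 6 of the 7 genes, against 5.08% of the 16897 genes tested. These counts follow from the choice of the genes. Because all 3 means had to be low, a gene that recovered in DKO could not be among them either. For the 16897 genes tested, limma called 0.0296% in KO against WT, 0.0296% in KH against WT and 0.728% in DKO against WT, with a call defined as a Benjamini-Hochberg adjusted p below 0.05 and over 2-fold between the average FPKM values. No call of the 7 genes against WT is given.

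The comparisons within embryos without Esrp1 asked whether removal of Esrp2 lowered the 7 genes further, and used no WT value in the contrast. The choice of the genes did use the KO, KH and DKO means, however, and shut out genes with a high DKO mean. Shares and medians over all genes, here and below, are therefore not a like background for the members. Means of 5 of the 7 genes followed the order KO, KH, DKO from high to low, all but Gsdmc and Rnase1, against 17% of all genes tested. Both DKO libraries lay below all 5 KO and KH libraries in 3 of the 7 genes (F3, Ankrd23 and Exph5), against 6.34% of all genes tested. No difference of a member passed the test in the fit without a covariate.

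Between DKO and KO, limma gave differences on the log2(FPKM + 1) scale of -1.41 (SE 0.36) for F3 and -1.31 (SE 0.46) for Ankrd23. Benjamini-Hochberg adjusted p-values over all genes tested were 0.239 and 0.517. Bsnd differed by -0.38 (SE 0.16, adjusted p = 0.708), a value held down by the 1 added to its low FPKM. With 0.1 added instead, Ankrd23 (-1.49) and Bsnd (-1.48) had larger differences than F3 (-1.43), still without a call. Ear5 (-0.75, SE 0.39) and Exph5 (-0.75, SE 0.45) had lower means in DKO with 95% intervals that span 0, while Gsdmc (0.24, SE 0.35) and Rnase1 (0.22, SE 0.49) were higher by less than their errors. The intervals reached from -0.57 to 1.04 for Gsdmc and from -0.91 to 1.34 for Rnase1, which leaves room for a change of either sign. Single libraries moved several of these values. Ear5 ranged from -1.17 without DKO replicate 1 to -0.33 without DKO replicate 2 and was at -0.49 without KO replicate 2, Exph5 was at -0.32 without KO replicate 3, and Gsdmc (-0.19) and Rnase1 (-0.54) turned negative without DKO replicate 1, as did Rnase1 without KO replicate 1 (-0.17). Of all genes tested 0.639% were called, 20 of them lower and 88 higher in DKO, and 0 of the 7 members. At an unadjusted p below 0.05, 3 of the 7 (F3, Ankrd23 and Bsnd) were lower in DKO, against 3.13% of all genes. The median difference of the 7 was -0.75, beside a median near 0 over all genes (-0.0029).

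Between DKO and KH, which both had low Xist, F3 differed by -1.22 (SE 0.40, adjusted p = 0.582, limma) and Ankrd23 by -1.15 (SE 0.51, adjusted p = 0.879, limma). Ankrd23 was at -1.88 without KH replicate 1 and at -0.42 without KH replicate 2, and F3 at -1.60 and -0.83, all without a call. Exph5 (-0.78, SE 0.49), Ear5 (-0.46, SE 0.42) and Bsnd (-0.30, SE 0.18) also had lower means in DKO, and Gsdmc (0.45, SE 0.39) and Rnase1 (0.20, SE 0.54) had higher ones, all with 95% intervals that span 0. Over all genes tested 0.426% were called and 0 of the 7 members, with 1 of them (F3) at an unadjusted p below 0.05 and 964 of all genes. The median of the 7 was -0.46 beside 0 over all genes. Loss of the first Esrp2 allele left no detectable difference. Between KH and KO the 7 differences lay between -0.29 (Ear5) and 0.04 (Exph5), their median was -0.16, and limma called 0 of the 7 and 0% of all genes, with 0 of the 7 and 185 of all genes at an unadjusted p below 0.05. The 95% intervals reached from -1.03 to 0.63 for F3 and from -1.22 to 0.89 for Ankrd23, wide enough to include a 2-fold lower level.

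**Figure D3:**
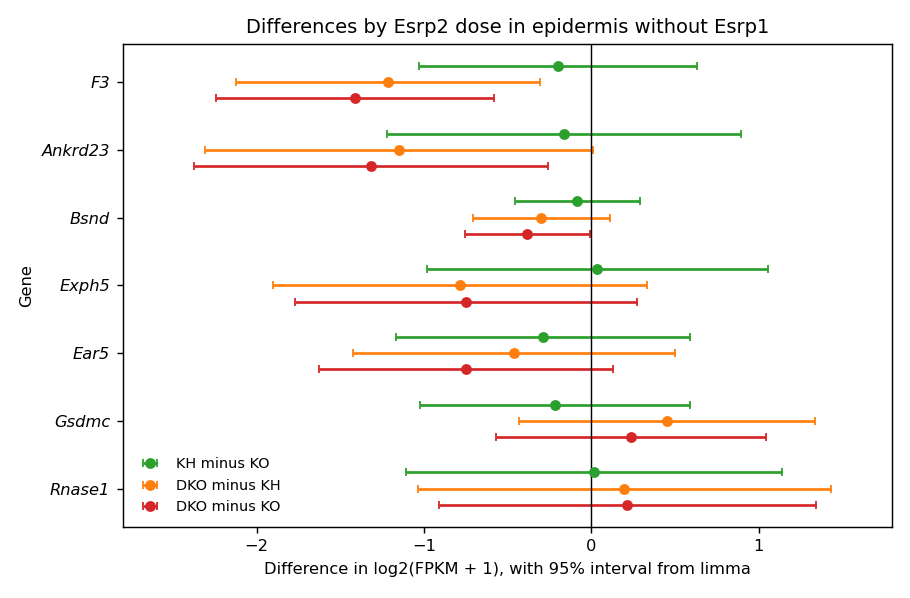
Differences in log2(FPKM + 1) between genotypes without Esrp1 (points) with 95% intervals from limma (bars) for the 7 genes, in the comparisons KH minus KO, DKO minus KH and DKO minus KO. The DKO minus KO interval lies below 0 for F3, Ankrd23 and Bsnd before adjustment, and every KH minus KO interval spans 0.

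A slope over the 7 libraries without Esrp1 gave the change per Esrp2 allele lost. It was -0.68 (SE 0.20) for F3, -0.63 (SE 0.25) for Ankrd23, -0.37 (SE 0.19) for Ear5, -0.35 (SE 0.20) for Exph5 and -0.18 (SE 0.08) for Bsnd on the log2(FPKM + 1) scale, and 0.10 for both Gsdmc (SE 0.18) and Rnase1 (SE 0.24). With 0.1 added in place of 1, the slope of Bsnd was -0.71, beside -0.69 for F3 and -0.71 for Ankrd23. The exact two-sided permutation test over the 210 assignments of the 7 libraries, whose smallest possible p is 0.00952, gave p = 0.0476 for F3. The exact p was 0.11 for Bsnd and for Ankrd23, 0.176 for Ear5, 0.205 for Exph5, 0.676 for Gsdmc and 0.752 for Rnase1. These exact p-values are not adjusted over the 7 genes. Only the KO libraries among the 7 had high Xist, so the slope cannot tell Esrp2 dose from Xist status. A slope was called on an adjusted p below 0.05 alone, with no limit on the fold. With adjustment over the 16741 genes fitted by limma, p was 0.549 for F3 and higher for the others, and 0% of all genes and 0 of the 7 were called, with 912 of all genes at an unadjusted p below 0.05. With the libraries weighted by arrayWeights of limma, F3 (-0.89, adjusted p = 0.0267) and Ankrd23 (-0.81, adjusted p = 0.0481) were called on the slope, beside 2.6% of all genes. At an unadjusted p below 0.05 without weights, 3 of the 7 had a falling slope, against 2.63% of all genes. The median slope of the 7 was -0.35, against -0.0011 over all genes.

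Libraries of 1 genotype also differed in their level of markers of the outer epidermal layers, and the 7 genes varied with it. The mean log2(FPKM + 1) of 6 granular and cornified markers (Lor, Flg, Ivl, Tgm3, Casp14 and Cdsn) was 9.61 and 9.57 for WT, 8.37, 9.28 and 9.44 for KO, 8.27 and 9.54 for KH, and 9.62 and 8.97 for DKO. Their summed FPKM ranged from 8583 to 10661 in WT, 5088 to 11352 in KO, 3951 to 11819 in KH and 5857 to 11186 in DKO, with no marker at 0. The libraries lowest in it within their genotype, KO replicate 1, KH replicate 1 and DKO replicate 2, were also the lowest of their genotype in all 7 genes, with 1 exception, Exph5 in KO. The 2 WT libraries were close in the marker level, and the lower of them, WT replicate 2, was the higher in 5 of the 7 genes. In bulk tissue, fewer cells of a layer and less RNA per cell cannot be told apart.

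With the granular and cornified marker level as a covariate, an adjustment chosen after seeing the data, the difference of F3 was -1.61 between DKO and KO (adjusted p = 0.00535, limma) and -1.51 between DKO and KH (adjusted p = 0.0150, limma). That of Ankrd23 was -1.57 (adjusted p = 0.0108, limma) and -1.54 (adjusted p = 0.0253, limma). These 2 members passed the call in both comparisons, in which 1.94% and 1.55% of all genes passed it. DKO replicate 1, at the level of WT in these markers, had 14.9% of the WT mean of F3 and 17.4% of that of Ankrd23, but 40.1% of that of Gsdmc and 59.0% of that of Rnase1.

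**Figure D4:**
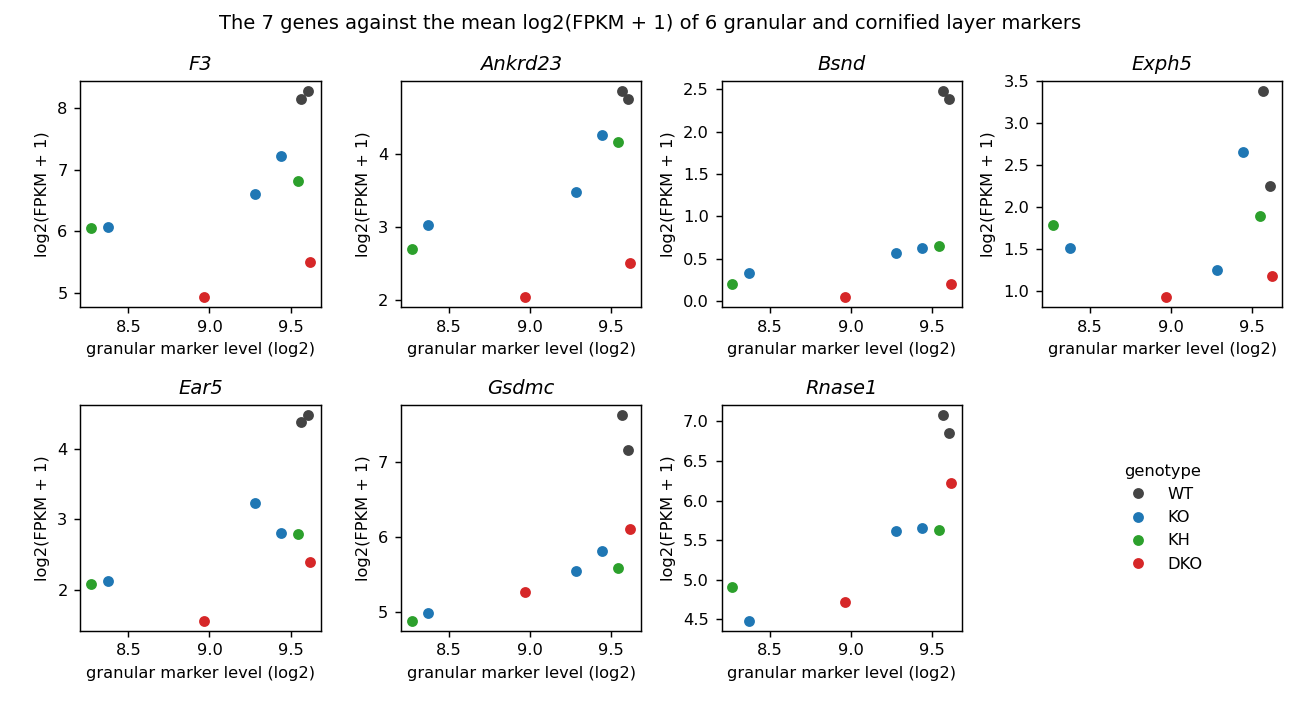
Log2(FPKM + 1) of each gene (vertical axis) against the mean log2(FPKM + 1) of 6 granular and cornified layer markers (horizontal axis) in the 9 libraries (points), coloured by genotype. The DKO points of F3 and Ankrd23 lie under all KO and KH points at any marker level, whereas the DKO point furthest to the right lies above all KO and KH points in Gsdmc and Rnase1.

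Markers of other layers and cell types also moved with the groups. Summed spinous markers ranged from 47179 to 61923 FPKM in WT, 22085 to 67720 in KO, 28367 to 40160 in KH and 26220 to 38253 in DKO, so all KH and DKO libraries lay below both WT libraries. KO replicate 3 held the most, and it was the highest KO library in 6 of the 7 genes, all but Ear5. The summed FPKM of 5 melanocyte markers was 42.4 to 46.6 in WT, 66.4 to 80.5 in KO, 55.9 to 148.1 in KH and 93.1 to 204.0 in DKO, above WT in all 7 libraries without Esrp1. Both DKO libraries also lay above both WT libraries in the summed FPKM of basal keratinocyte markers (5752 and 7093, against 4226 to 4275), hair follicle markers (560.7 and 648.0, against 396.8 to 471.6), immune cell markers (21.3 and 41.8, against at most 18.4) and periderm and simple epithelium markers (21.2 and 27.9, against 17.4 to 20.6), while fibroblast and red blood cell markers overlapped WT. The basal sum was also above both WT libraries in all KO libraries (4720 to 7852) and in KH replicate 1 (6967), but not in KH replicate 2 (3639). Hair follicle sums were 371.8 to 685.0 in KO and 363.2 to 629.4 in KH. Immune sums were 15.8 to 26.6 in KO and 14.4 to 40.6 in KH, and periderm sums 17.5 to 22.9 and 16.8 to 23.6. In these lists the ranges of KO and KH thus overlapped those of WT and DKO. Of the 6 eosinophil and granulocyte markers, Epx, Prg2, Elane and Mpo were below 0.1 FPKM in all 9 libraries. Epx, Prg2 and Siglecf, markers of the eosinophils for which Ear5 is named, were at no more than 0.120 FPKM in any library. The summed list was at 15.4 and 15.3 FPKM in DKO and at most 1.37 elsewhere, nearly all of it S100a8, which keratinocytes can also express. The endothelial markers Cdh5, Kdr, Tek and Emcn, of a cell type known to make Rnase1, were likewise below 0.1 FPKM in all 9, with sums of the 5 listed at 0.128 to 0.355 FPKM. The part of these markers in the results was not tested.

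Once WT was set aside, likeness between the 7 genes was uneven. Pearson's r of log2(FPKM + 1) between pairs of them over all 9 libraries was between 0.63 and 0.97 with a median of 0.85 (21 pairs), values that share the distance of WT from the rest. Over the 7 libraries without Esrp1 it was between 0.11 and 0.98 with a median of 0.65. There Bsnd, F3 and Ankrd23 went together (0.95 to 0.98), Gsdmc and Rnase1 went together (0.92), and Gsdmc had values of 0.20 with F3 and 0.11 with Exph5. These are descriptions over 7 libraries that share the marker levels given above. Ear5 lay between both sets, with 0.88 to Bsnd and 0.65 to its neighbour Rnase1.

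**Figure D5:**
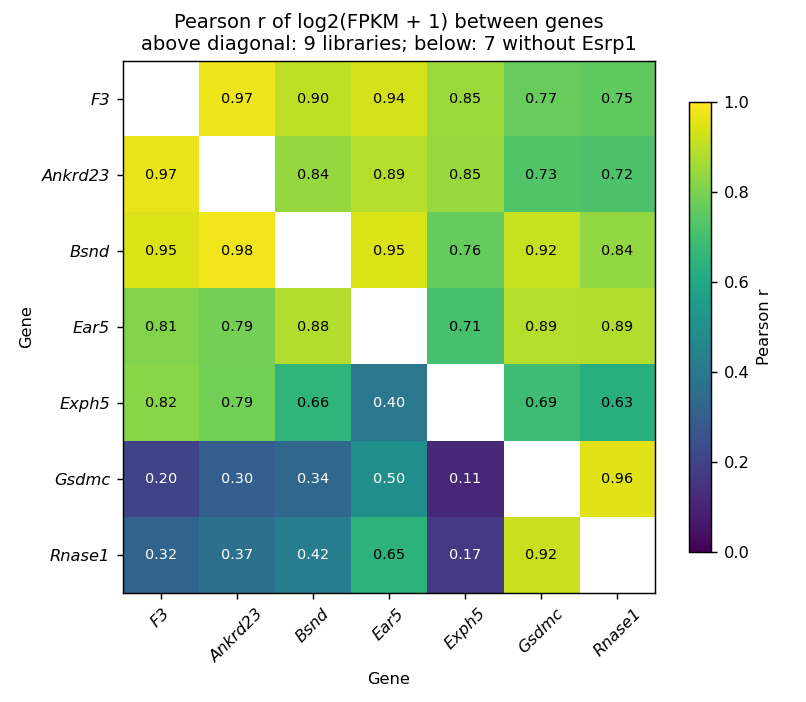
Pearson's r of log2(FPKM + 1) between the 7 genes (colour and number in each cell), above the diagonal over all 9 libraries and below it over the 7 libraries without Esrp1. Below the diagonal F3, Ankrd23 and Bsnd form a block at 0.95 to 0.98, and Gsdmc with Rnase1 stands apart from it at 0.20 to 0.42.

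Among 12733 genes averaging at least 1 FPKM in some genotype, those most like each member over the 9 libraries were named by the highest Pearson's r. The nearest to F3 was Pramef12 (0.989), at means of 8.38 FPKM in WT and 4.63, 3.74 and 1.87 FPKM in KO, KH and DKO, followed by Aagab and Krcc1. Ankrd23 was nearest to Akap4 (0.989), at 2.00 FPKM in WT and 0.878, 0.766 and 0.132 FPKM in KO, KH and DKO, then to Fads6 and Acpl2. Bsnd was nearest to Tmprss11e (0.995), which encodes a membrane serine protease, at 1.35 FPKM in WT and 0.207, 0.207 and 0.0585 FPKM in KO, KH and DKO, then to Clock and Vopp1. These 3 leading genes shared with their member a DKO mean below the KO and KH means, a likeness that the choice by r over the same libraries favours.

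Gsdmc was nearest to Serpinb3d (0.977), a clade B serpin, at 2.46 FPKM in WT and 0.636, 0.470 and 0.756 FPKM in KO, KH and DKO, with Gm8080 and Gpr107 next. The DKO mean of Serpinb3d was the highest of the 3, as in Gsdmc itself, which the choice by r likewise favours. Exph5 was nearest to Jak1 (0.988), then Synrg and Dennd4a. Ear5 was nearest to Homer2 (0.97), then Ttll1 and Tgm5, a transglutaminase of the cornified envelope at 18.9 FPKM in WT and 11.0, 10.7 and 8.18 FPKM in KO, KH and DKO. Rnase1 was nearest to Pou3f1 (0.960), a transcription factor of the epidermis at 31.3 FPKM in WT and 24.5, 24.2 and 24.2 FPKM in KO, KH and DKO, then to Hpgds and Rcn1.

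Of the families and partners of the 7 genes, 1 gene was called in the 6 comparisons. Of 104 such genes found in the table, 58 passed the filter on low values, and limma called 0 of them in KO against WT, in KH against WT and in DKO against WT, with 6 (10.3%), 6 (10.3%) and 16 (27.6%) at an unadjusted p below 0.05 beside 4.53%, 3.72% and 13.8% of all genes tested. It also called 0 between KH and KO and between DKO and KH, with 2 (3.45%) and 6 (10.3%) at an unadjusted p below 0.05 beside 1.09% and 5.71% of all genes. In DKO against KO 1 of the 58 (1.72%) was called, Thbd, beside 0.639% of all genes, and 9 (15.5%) were at an unadjusted p below 0.05 beside 6.8% of all genes. By family, the genes tested were 7 of 19 found for ribonucleases, 10 of 17 for gasdermins and their activators, 15 of 24 for the tissue factor pathway, 7 of 16 for chloride transport, 15 of 19 for Rab27 effectors and 4 of 9 for muscle ankyrin repeat proteins.

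Thbd encodes thrombomodulin, the receptor that turns thrombin from clotting towards activation of protein C, and so acts on the opposite side of coagulation from tissue factor. Both WT libraries were at 5.88 and 7.71 FPKM, those of KO at 1.20, 1.37 and 2.09 FPKM, those of KH at 2.26 and 1.73 FPKM, and those of DKO at 7.39 and 6.02 FPKM. The 2 DKO libraries lay among the WT values and above all 5 KO and KH libraries, a pattern in which Thbd parted from F3. Its difference between DKO and KO was 1.60 (SE 0.23, adjusted p = 0.0195, limma), and that between DKO and KH was 1.36 (adjusted p = 0.0869, limma). KO differed from WT by -1.61 (adjusted p = 0.159, limma) and KH by -1.38 (adjusted p = 0.48, limma), which did not pass. The call between DKO and KO was lost without any 1 of DKO replicates 1 and 2, KO replicates 1 and 2 or WT replicate 2. The difference stayed between 1.47 and 1.75 whichever library was left out. The call was also lost with no filter on low values (adjusted p = 0.0516, limma) and after rescaling to TPM (adjusted p = 0.0723, limma). The replicate number as a block removed it too (adjusted p = 0.101, limma), and differences in these settings were 1.60 to 1.75.

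Other partners were measured as follows. F7 and F10, the plasma factors that tissue factor works with, were at no more than 0.0134 and 0.0143 FPKM in any library, Tfpi, its inhibitor, was between 0.654 and 1.63 FPKM, and F2rl1, a receptor cleaved in the same pathway, was between 3.67 and 8.59 FPKM. Rnh1, the cytosolic ribonuclease inhibitor, was between 218.7 and 329.9 FPKM. Gsdma, the gasdermin typical of epidermis, was between 62.2 and 175.8 FPKM and Gsdmd between 0.795 and 1.66 FPKM, and Rab27b was between 30.1 and 67.4 FPKM. F7 and F10 did not pass the filter on low values and were not tested, and none of the other partners in this paragraph was called in any of the 6 comparisons.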

How the data were processed

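RNA-seq was done by the authors on polyA-selected, strand-specific libraries from epidermis of individual E18.5 embryos (WT 2, KO 3, KH 2, DKO 2), with genotypes taken from the sample labels. The authors used TopHat 1.4.1 for mapping to mm10 and to transcripts of Ensembl release 72, and Cuffdiff 2.2.0 for the deposited FPKM values. How Cuffdiff scaled the libraries is not given in the sources used here. Columns of genotype averages are the authors' means and were not used. FPKM holds no read counts, so no interval for counting error was possible.

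Genes averaging above 0.1 FPKM in at least 1 genotype were fitted as log2(FPKM + 1) with limma 3.58.1 (R 4.3.3), with 4 genotype means over 9 libraries (5 residual degrees of freedom), an eBayes trend and no covariate. Folds on this scale understate the change of low genes. All 7 members passed the filter. P-values were adjusted by the Benjamini-Hochberg method over all genes tested. A slope on Esrp2 alleles lost was fitted to the 7 libraries without Esrp1, with an exact permutation test for members. Tables and plots were made in Python 3.11.15 (pandas 2.3.3; matplotlib 3.10.9; numpy 2.4.6), and the fits were tested on simulated data.

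The members, gene lists, tests and alternatives were chosen with earlier results of these data known. Genes named are the members, the 3 genes most like each by Pearson's r, family genes called in any comparison, and direct partners set out in a list, some of which are not reported here. S100a8, Xist, the markers and the neighbours stand beside results they move with. Alternatives were TPM, median ratio and quantile scaling, adding 0.1 in place of 1, fitting without a filter or with 1 FPKM as its limit, eBayes without a trend, arrayWeights, a replicate block, only the genotypes compared, and each library left out. A fit with the marker level as a covariate, and one of KO, KH and DKO alone, were added after seeing the data. A fit with Xist status as a covariate was also tried then and is not given, since its term rested on the 2 WT libraries alone. Chromosome positions are the table's, strands and overlaps are from GENCODE M21, and promoter windows are from RefSeq GRCm38.p6. Splicing of these genes was not analysed here.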

Additional observations from a re-analysis of the deposited data

How the results depend on the processing

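The 7 members kept means below 50% of WT in KO, KH and DKO under every rescaling tried, and 5 to 7 of them did so when 1 library at a time was dropped (5 without KO replicate 1). No member was called between DKO and KO or DKO and KH except with the marker level as a covariate, where 2 were called in each, and none on the slope except with arrayWeights, where 2 were called (F3 and Ankrd23).

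Signs changed in the following settings. With the marker level as a covariate, Rnase1 was at -0.046 between DKO and KO, at -0.19 between DKO and KH and at -0.0098 on the slope. With arrayWeights, Rnase1 was at -0.0036 between KH and KO and at -0.22 on the slope, and Gsdmc at -0.053 on the slope.

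The replicate numbers did not pair the samples: deviations of same-numbered libraries from their genotype means correlated between -0.57 and 0.47. KO replicate 3 is alone in its number, so the replicate block also takes it out of the contrasts. With the block, F3 and Ankrd23 were at 0.10 and 0.17 between KH and KO, the same values as without KO replicate 3, and 0 members were called. Calls over all genes between DKO and KO went from 108 to 52 with the block and to 62 without KO replicate 3.

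When 1 library at a time was dropped, differences between KH and KO ranged from -0.58 to 0.19 for F3, -0.89 to 0.57 for Ankrd23, -0.24 to 0.46 for Exph5, -0.65 to 0.075 for Ear5, -0.56 to 0.13 for Gsdmc, -0.31 to 0.14 for Bsnd and -0.37 to 0.37 for Rnase1. Between DKO and KO they ranged from -0.19 to 0.66 for Gsdmc and -0.54 to 0.97 for Rnase1. Between DKO and KH they ranged from -0.55 to 0.95 for Rnase1, -0.88 to -0.047 for Ear5, -0.52 to -0.074 for Bsnd and 0.027 to 0.88 for Gsdmc. On the slope they ranged from -0.12 to 0.22 for Gsdmc, -0.21 to 0.39 for Rnase1, -0.52 to -0.19 for Ear5 and -0.51 to -0.16 for Exph5. Between DKO and KO, F3 stayed below 0, from -1.69 to -1.12.

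Among family genes, arrayWeights called 1 in KO and 3 in DKO against WT, the marker covariate 2 in DKO against WT, 3 in DKO against KO and 2 in DKO against KH, and a fit of only WT and DKO called 1. The 1 call between DKO and KO became 0 with no filter, TPM and the replicate block. With a library left out, calls ranged from 0 to 1 in DKO against WT (1 without DKO replicate 2), DKO against KO and DKO against KH (1 without KH replicate 1). Rescaling to TPM moved the median of all genes between DKO and KH by -0.12 on the log2 scale, and the members' calls stayed at 0. The cause of these changes was not tested. Read counts cannot be had from FPKM, so the share of counting error in the spread is unknown.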
